A study of Drosophila melanogaster with 6 samples.

Results

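The RNAs described here are the abundant long non-coding RNAs of the Drosophila melanogaster ovary, taken as the rows whose name is CR followed only by digits, the fly gene number of a transcript without a known protein, and whose mean over the 6 libraries was at least 100 normalized counts. After rows of ribosomal RNA were left out, 99 of the 13216 rows of the table, and of 919 CR-numbered rows, were members. Their mean level chose them, so that level is a description. The rule did not use the difference between genotypes, but that mean holds both groups, so a high level in 1 group alone could bring a member in. The study sequenced rRNA-depleted, strand-specific total RNA from ovaries of wild type females of the wBerlin strain and of GCNA null females. The null line was made with a CRISPR construct inserted to knock out the gene, and was outcrossed to wBerlin for 10 generations. Both groups were 1 to 3 days old by the labels, were collected at 0 to 2 days, were fed wet yeast for 24 hours, were kept at 25 °C and have 3 libraries each. The labels name a single null line, do not give the number of females per library, and do not say whether the libraries of a group came from separate dissections, so p-values measure the spread between these samples only. No other allele or agent is given for either group.

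Long non-coding RNAs are transcripts longer than the small RNA classes that are not known to be translated. Some are precursors from which microRNAs or small nucleolar RNAs (snoRNAs) are cut, some form long hairpins that Dicer-2 turns into small interfering RNAs, some run antisense to an mRNA, and for many no role is known. In the fly ovary, germline nurse cells make most of the RNA that is loaded into the egg, and somatic follicle cells make the yolk proteins and the eggshell. GCNA is a germ cell nuclear protein with a disordered acidic region and, in many animals, a protease domain of the Spartan type, and is known for its part in genome stability of germ cells.

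The label of the members was set against a newer annotation (Ensembl release 115, in dm6 coordinates). Of the 99 members, 65 were annotated as lncRNA and 26 as antisense RNA. A further 2, CR32205 and CR32207, were hairpin RNAs, CR43727 was a pseudogene, and CR17567 and CR43051 were genes that are now listed as protein-coding. The remaining 3, CR40962, CR40963 and CR40976, matched no annotated gene, and nothing can be said of their kind. The exons of the 96 matched members covered 214 to 15466 bp, with a median of 1173.5 bp. On chromosome X lay 31 members, on 3L 20, on 3R 16, on 2R 14, on 2L 11 and on the small chromosome 4 lay 4. A mean of at least 1000 normalized counts was reached by 19 members, and the median member had a mean of 334. Just inside the limit stood CR40963 with a mean of 101, CR43989 with 103 and CR43301 with 109, and just outside stood CR44390 with 99.1, CR44957 with 97.2 and CR45473 with 96.5. Of the members, 5 had a mean of at least 100 in GCNA null alone (CR40963, CR43250, CR43301, CR43989 and CR44966) and 2 in wild type alone (CR43144 and CR45472), so these 7 are members only through the group in which they are higher.

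The libraries held 38401723 to 55758180 reads. The targeted gene, Gcna (CG14814, X:1862009-1865835, minus strand), stood at 20676, 18292 and 19581 normalized counts in wild type and at 493, 428 and 520 in GCNA null (log2 difference -5.31 ± 0.08, SE; adjusted p = 2.0e-06 by limma), in the direction of the labels. GCNA null replicates 1 and 2 were nearly alike: chi-square per degree of freedom over rows under 1000 reads was 1.10, against 6.86 to 10.8 for the other 5 pairs within a group. They may be one library sequenced more than once, and they enter every test as their mean, as 1 sample, which leaves 3 wild type and 2 GCNA null samples. GCNA null replicate 3 stood apart from them in the levels of follicle cell genes and of other tissues' markers. The 13 eggshell genes took 1.09% and 1.04% of reads in GCNA null replicates 1 and 2 and 2.63% in replicate 3, against 2.48% to 2.79% in wild type. Summed over 8 muscle genes, the level was 52621 and 51530 in null replicates 1 and 2, 23492 in replicate 3 and 27089 to 45683 in wild type. For 5 fat body genes the sums were 3215, 3310 and 10392 in the null libraries and 5804 to 9637 in wild type. The 4 testis genes in the table summed to 62.3 to 102 in GCNA null and to 7.40 to 14.2 in wild type. The 3 genes of oviduct and spermatheca summed to 1454, 1396 and 1560 in GCNA null and to 721, 708 and 388 in wild type, so every null library was higher in both lists, and no gene of these lists was at 0 in all libraries. The part of these differences in the results below was not tested, except where values without a library are given, and fewer cells of a type and less RNA per cell cannot be told apart in whole ovaries.

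Among the 99 abundant CR-numbered rows, CR40469 rose 87.9-fold in GCNA null ovaries. Of the others, 3 rose and 7 fell by up to a few fold, and most did not pass the test. All 99 members passed the filter on low values, and 11 passed the test (limma on log2 of the normalized count plus 1, Benjamini-Hochberg adjusted p under 0.05 over all 10132 rows tested). Of these, 4 were higher in GCNA null and 7 lower. The 4 higher ones were 2 annotated as lncRNA, the hairpin RNA CR32205 and the pseudogene CR43727. Among the 92 members with a mean of at least 100 in both groups, 4 were higher and 5 lower (9.78%), since CR43144 and CR45472, members through wild type alone, drop out. This share and that of 11.1% of all 99 members stand beside 6.37% of all rows tested. They also stand beside 6.61% of the 227 less abundant CR-numbered rows tested and 6.02% of protein-coding rows with a mean of at least 100. The 4 higher members stand beside 4.25% higher among all rows and the 7 lower beside 2.11% lower. The median log2 difference of the members was 0.04, and that of all rows was near 0 (-0.00045). The middle part of the members, from the lower to the upper quartile, ran from -0.15 to 0.40 and that of all rows from -0.13 to 0.17. In 48 members (48.5%) the libraries of the groups did not overlap, with 28 of them higher and 20 lower in GCNA null. This stands beside 38.9% of all rows, 38.3% of the less abundant CR-numbered rows and 39.5% of the abundant protein-coding rows. The 48 include members that reach 100 in 1 group alone. Among the 92 that reach it in both groups, 24 were higher and 18 lower without overlap. Of the 88 members that did not pass, 72 had a 95% interval of the log2 difference that lay within 1 on either side of 0. With the 6 libraries taken as separate samples, 18 members were higher and 14 lower, and 16.6% of all rows passed.

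**Figure D1:**
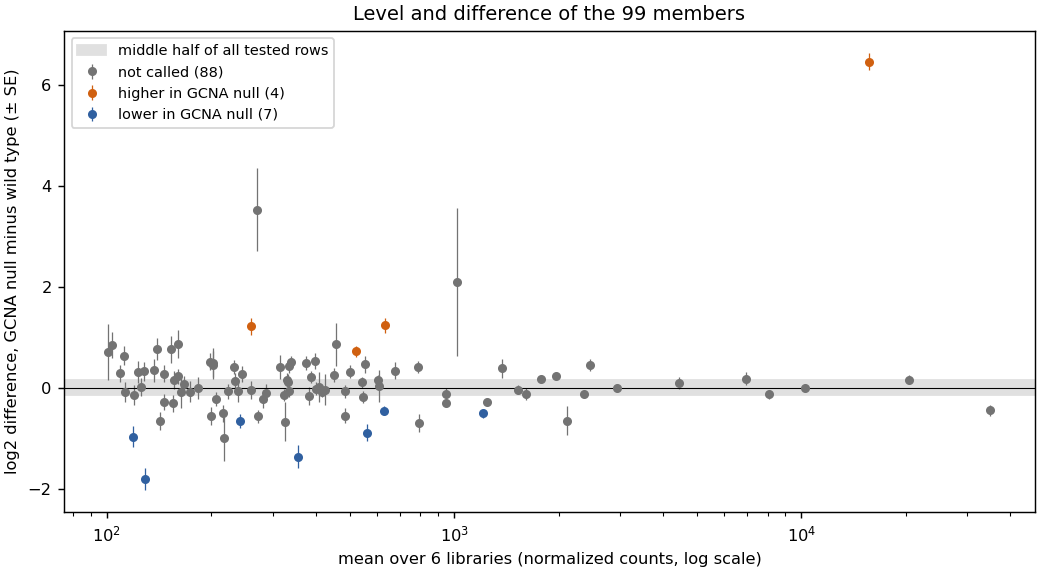
Each point is 1 of the 99 members, with its mean over 6 libraries in normalized counts on a log axis (x) and its log2 difference, GCNA null minus wild type, ± SE (y); orange points passed the test as higher, blue as lower and grey did not pass. The grey band is the middle part of all 10132 tested rows, from -0.13 to 0.17, and CR40469 stands alone at 6.47.

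The largest difference was that of CR40469, a stand-alone lncRNA of 214 bp close to the end of chromosome X (X:122493-122706, plus strand), for which no role is known. CR40469 lies 1739 kb from Gcna on the same chromosome. It stood at 338, 448 and 307 normalized counts in wild type and at 28908, 28688 and 35250 in GCNA null. Every null library was far above every wild type library, and null replicate 3, which stood apart from replicates 1 and 2 in other genes, was the highest. These values rest on 361, 424 and 282 reads in wild type and on 25135, 36361 and 35020 reads in GCNA null. The log2 difference was 6.47 ± 0.17 (SE; adjusted p = 3.8e-05 by limma), an 87.9-fold higher level. CR40469 took 0.247%, 0.320% and 0.236% of the members' summed normalized counts in wild type and 18.1%, 17.8% and 21.6% in GCNA null. Without it, the members summed to 130035 to 139623 normalized counts in wild type and to 127618 to 132510 in GCNA null, ranges that overlap. The nearest tested gene, CG17636, begins 1.66 kb to the right and was also higher in GCNA null, at 64.4, 66.3 and 74.5 normalized counts against 29.9, 24.3 and 15.3 in wild type (log2 difference 1.60 ± 0.34, SE; adjusted p = 0.047 by limma). No tested gene lay on its left side.

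The other 3 members that were higher rose by a smaller factor. CR32205 (3L:19420390-19424183, minus strand) is a hairpin RNA, a long inverted repeat of the kind from which Dicer-2 cuts small interfering RNAs. It was at 431, 390 and 308 normalized counts in wild type and at 875, 922 and 870 in GCNA null. The null libraries lay close together and all above wild type, with a log2 difference of 1.24 ± 0.15 (SE; adjusted p = 0.0087 by limma). CR32207, the other hairpin RNA and a more abundant one, was at 2914, 3005 and 2780 in wild type and at 3112, 3131 and 2725 in GCNA null, so its groups overlapped (log2 difference 0.01). The related hairpin RNA CR33940, listed in the table as pncr009:3L and no member by its name, also overlapped, at 3765, 3731 and 3623 against 3752, 3871 and 3576. CR43727, a pseudogene on 3L (16581637 to 16582767, plus strand), was at 170, 159 and 132 normalized counts in wild type and at 384, 390 and 330 in GCNA null. Its libraries did not overlap, and the log2 difference was 1.22 ± 0.17 (SE; adjusted p = 0.012 by limma). Its neighbours Smn, the survival motor neuron gene, and Rpn12, a proteasome subunit, did not pass the test. CR44833 (X:4956646-5063868, minus strand) runs antisense to ovo, a germline transcription factor of oogenesis, with which it shares 25 bp of exon. It was at 418, 392 and 362 in wild type and at 675, 663 and 624 in GCNA null (log2 difference 0.73 ± 0.11, SE; adjusted p = 0.016 by limma), while ovo differed by -0.01 on the log2 scale.

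Of the 7 members that fell in GCNA null ovaries, CR43144 had the most negative log2 difference, and it is a member only through its level in wild type. This stand-alone lncRNA on 2L (21657625 to 21658249, plus strand), 486 bp from Cul2, was at 223, 208 and 177 normalized counts in wild type and at 49.5, 46.5 and 68.4 in GCNA null. The highest null library was below the lowest wild type library, and the log2 difference was -1.80 ± 0.22 (SE; adjusted p = 0.0082 by limma). Cul2, which encodes a cullin of ubiquitin ligases, differed by 0.03 on the log2 scale and did not pass. CR45481 (X:3968933-3972054, plus strand), antisense to CG6414, was at 554, 430 and 573 in wild type and at 153, 166 and 252 in GCNA null (log2 difference -1.36 ± 0.23, SE; adjusted p = 0.023 by limma). Its nearest tested gene on the right, CG43689 at 104 kb, was also lower, at 963, 871 and 1050 against 415, 369 and 524 (log2 difference -1.08 ± 0.15, SE; adjusted p = 0.012 by limma). On the left, CG6428 had a log2 difference of 0.26 and did not pass. CR45472, a stand-alone lncRNA on 2R (5663909 to 5664615, plus strand) and also a member only through wild type, was at 149, 182 and 148 in wild type and at 71.3, 71.0 and 92.6 in GCNA null (log2 difference -0.96 ± 0.20, SE; adjusted p = 0.044 by limma). In all 3 of these members, null replicate 3 lay nearest to wild type without reaching it.

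The other 4 that fell share exon sequence with a protein-coding gene. CR43481 (3L:9378160-9381119, plus strand) lies among the small heat-shock protein genes and is antisense to Hsp67Ba. It was at 600, 724 and 882 normalized counts in wild type and at 362, 365 and 426 in GCNA null (log2 difference -0.88 ± 0.17, SE; adjusted p = 0.037 by limma). Hsp67Ba differed by 0.42 on the log2 scale and did not pass. Hsp26, a small heat-shock chaperone gene 733 bp to the left, fell from 59776, 67574 and 61221 to 43399, 42127 and 44719 (log2 difference -0.52 ± 0.10, SE; adjusted p = 0.032 by limma), while Hsp23, 763 bp to the right, had a log2 difference of 0.55 and did not pass. CR43257 (2R:24793807-24795772, plus strand) is antisense to ETH, which encodes the ecdysis triggering hormone, and to the end of Orc4, a subunit of the origin recognition complex. It was at 264, 315 and 305 in wild type and at 167, 209 and 187 in GCNA null (log2 difference -0.64 ± 0.14, SE; adjusted p = 0.047 by limma), and neither ETH (0.37) nor Orc4 (-0.06) passed. CR43836 (X:8972908-9048991, minus strand) shares 473 bp of exon with CG10962 on the same strand. It was at 1439, 1299 and 1471 in wild type and at 1059, 1060 and 927 in GCNA null (log2 difference -0.50 ± 0.09, SE; adjusted p = 0.033 by limma). CG10962 had a log2 difference of -0.45 and did not pass, and reads of the shared bases could belong to either gene. CR45409 (3L:8309351-8310512, minus strand) shares 20 bp with CG7185, a gene of mRNA cleavage and polyadenylation. It was at 686, 765 and 728 in wild type and at 496, 555 and 536 in GCNA null (log2 difference -0.45 ± 0.09, SE; adjusted p = 0.040 by limma), and CG7185 had a log2 difference of -0.26 and did not pass.

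**Figure D2:**
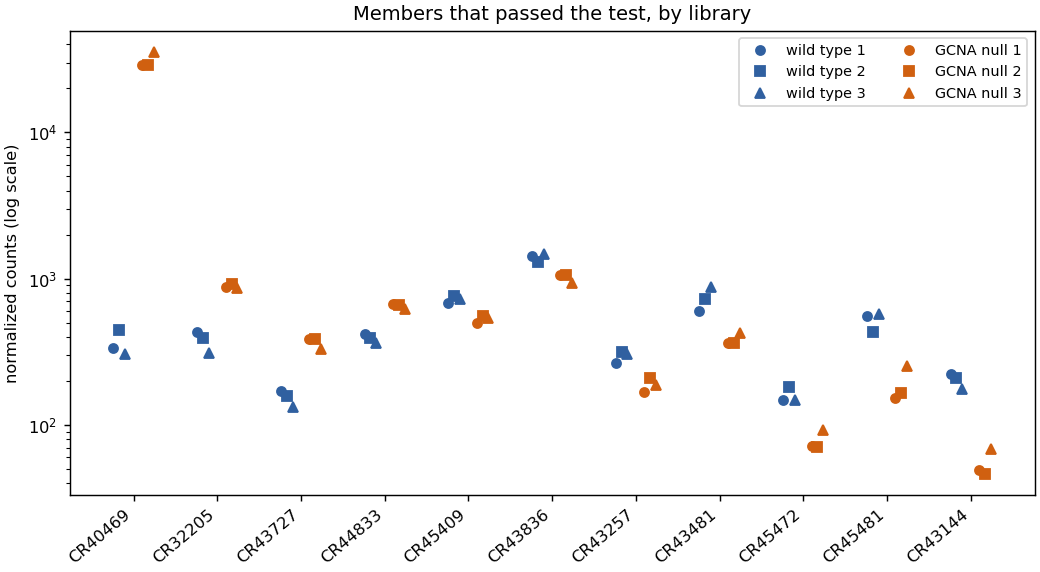
The normalized counts (log axis) of the 11 members that passed the test, with 1 point per library, wild type in blue and GCNA null in orange, and the replicate given by the shape. For each of them the groups do not overlap; CR40469 goes from 307 to 448 in wild type up to 28688 to 35250 in GCNA null, and CR43144 from 177 to 223 down to 46.5 to 68.4.

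The calls differ in how much they rest on single libraries. With all libraries in the fit, 8 of the 11 passed under all 12 settings tried. CR45409 did not pass with edgeR, CR43257 with edgeR or with no filter on low values, and CR45472 with edgeR, with no filter or with a minimum mean of 50. With a library left out, CR40469 and CR43144 passed in every fit. The other 9 did not pass without null replicates 1 and 2. That fit and the one without null replicate 3 each leave 1 null sample, whose spread is then assumed to be that of wild type. CR32205 and CR43727 passed in every other fit with a library left out, and CR44833, CR45481, CR43481, CR43836, CR45409, CR43257 and CR45472 also lost the call without at least 1 wild type replicate. Without null replicate 3, CR43481, CR43836, CR45409, CR43257 and CR45472 did not pass, and without null replicate 1, CR45409 and CR43257 did not. None of the 11 changed sign in any fit.

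By kind, the members were grouped by what the annotation places at their position. Primary microRNA transcripts, from which Drosha and Dicer-1 cut mature microRNAs, numbered 10, and none passed the test, with a median log2 difference of 0.03. They carry microRNAs with known roles in growth, metabolism and the germline, and were named here by kind and with their values seen. Only members with a microRNA in their exons on the same strand were counted in this kind. CR43836, which passed as lower, holds mir-31b inside its span but outside its exons, and was counted with another kind. CR43334, the transcript of the growth-promoting microRNA bantam, was at 311, 322 and 290 normalized counts in wild type and at 375, 402 and 289 in GCNA null. Its groups overlapped, as did those of CR43650, the transcript of mir-8, of CR43651 (mir-14), of CR43626 (mir-282) and of CR31044, which holds mir-279 and mir-996. CR31044 had the highest normalized counts of the kind, but 315 per kb of its 5106 bp of exon against 726 for CR43857, and was at 1499, 1899 and 1585 in wild type and 1580, 1652 and 1447 in GCNA null. CR44206, which holds mir-184, a microRNA needed for fly oogenesis, was at 143, 144 and 149 in wild type and at 185, 182 and 159 in GCNA null. These groups did not overlap, but the difference did not pass (log2 difference 0.23 ± 0.15, SE; adjusted p = 0.41 by limma). The libraries were also separate for CR43314 (mir-263a), CR43459 (mir-277 and mir-34) and CR44327 (mir-276a and mir-276b), higher in GCNA null, and for CR43857 (mir-275), lower, and none of these 4 passed. The largest among them was CR44327, at 87.0, 119 and 111 against 139, 174 and 205 (log2 difference 0.77 ± 0.22, SE; adjusted p = 0.10 by limma). Precursor levels do not give the levels of mature microRNAs, which were not measured here.

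The 3 members whose span holds a snoRNA, a guide RNA for the chemical modification of ribosomal RNA, stayed close to 0 on the log2 scale. CR42491, which lies inside the RpL22 ribosomal protein gene, was at 9604, 11058 and 10449 in wild type and at 9790, 9884 and 10814 in GCNA null (log2 difference -0.01), and its groups overlapped. It shares 377 of its 747 bp of exon with RpL22 on the same strand. RpL22 was at 10336, 11171 and 12984 in wild type and at 10497, 10492 and 11155 in GCNA null. Reads of the shared bases could belong to either gene, so the level of CR42491 may in part be that of RpL22. The snoRNA inside CR42491, snoRNA:Psi18S-531, had a mean of 1432 ± 39.4 (SD, n = 3) in wild type and 1391 ± 184 (SD, n = 2) in GCNA null. CR45184, inside the splicing factor gene CG13900, was at 8176, 7931 and 9365 in wild type and at 7548, 7622 and 7952 in GCNA null (log2 difference -0.12), and shares 2508 bp of exon with that gene, which differed by -0.14. CR43051 was at 113, 143 and 122 against 120, 119 and 135. All 3 overlapped between groups. The snoRNA host genes named Uhg, which are no members because of their names, are described further down.

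Members antisense to the exons of another gene were the most frequent kind, with 32, of which 1 passed as higher and 3 as lower (12.5%) with a median log2 difference of -0.05. Sharing exons with a gene on the same strand were 16 members, with 2 lower and a median of 0.12, and 11 overlapped only the span of a gene, with none passing and a median of -0.03. Stand-alone members numbered 20, with 1 higher and 2 lower (15%) and a median of 0.24. The 2 lower ones, CR43144 and CR45472, are members only through wild type. These shares stand beside 11.1% of all members and 6.37% of all rows tested, and differences between kinds were not tested. Of the genes now listed as protein-coding or pseudogene, CR17567 was at 180, 195 and 217 in wild type and 290, 254 and 255 in GCNA null, separate but not past the test, beside CR43727 above.

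**Figure D3:**
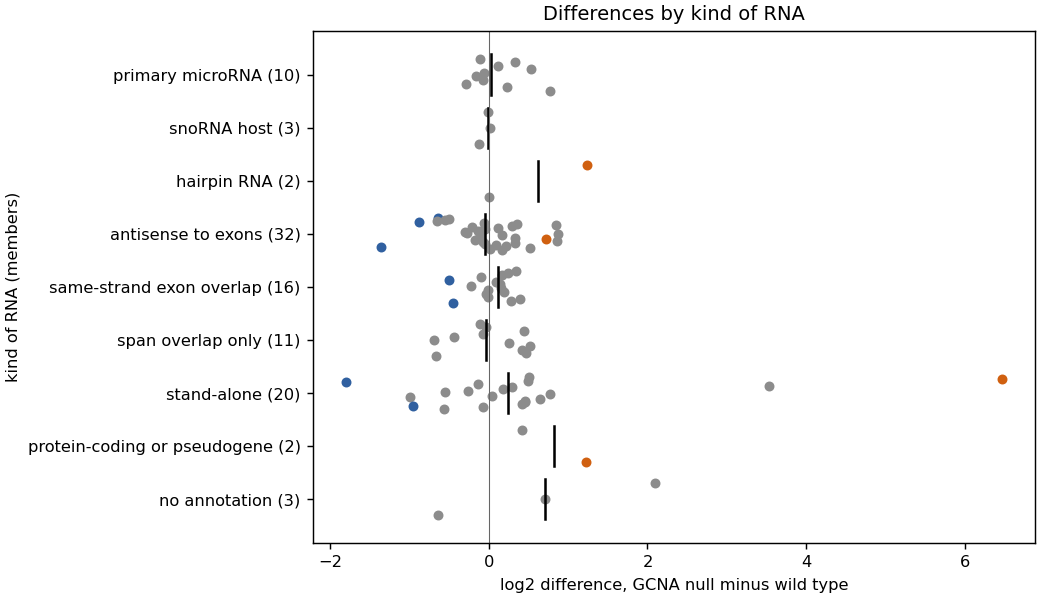
The log2 difference, GCNA null minus wild type (x), of each member by the kind of RNA (y, with the number of members in brackets); orange points passed as higher, blue as lower, grey did not pass, and the black bar is the median of the kind. The 10 primary microRNA transcripts and the 3 snoRNA hosts hold no member that passed, and the 20 stand-alone members hold both CR40469 and CR43144.

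Antisense members were set beside the mRNA on the other strand, a comparison that rests on strand-specific counting; the kit marks strand by the labels, but how strand was counted was not given in the sources used here. Over 29 pairs of 26 members with a tested protein-coding gene on the opposite strand, 14 pairs had differences of the same sign, and Pearson's r across pairs was -0.06. Over 25 pairs on the same strand, which share exon bases and thus may share reads, 20 had the same sign and r was 0.66. Both are descriptions across genes in the same libraries, and pairs are not independent replicates. In none of the 6 pairs with a member that passed did the mRNA pass. CR44020, antisense to the end of osk, which encodes the germ plasm determinant Oskar, was at 116, 130 and 143 in wild type and at 167, 170 and 148 in GCNA null, with a log2 difference of 0.29 against -0.13 for osk, and neither passed. CR44599, antisense to loqs, the partner of Dicer proteins, was at 126, 141 and 76.3 in wild type and at 209, 217 and 194 in GCNA null. These libraries did not overlap, but the log2 difference of 0.87 ± 0.28 did not pass (SE; adjusted p = 0.13 by limma), and loqs differed by -0.03. These were picked for the role of the mRNA with their values seen.

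**Figure D4:**
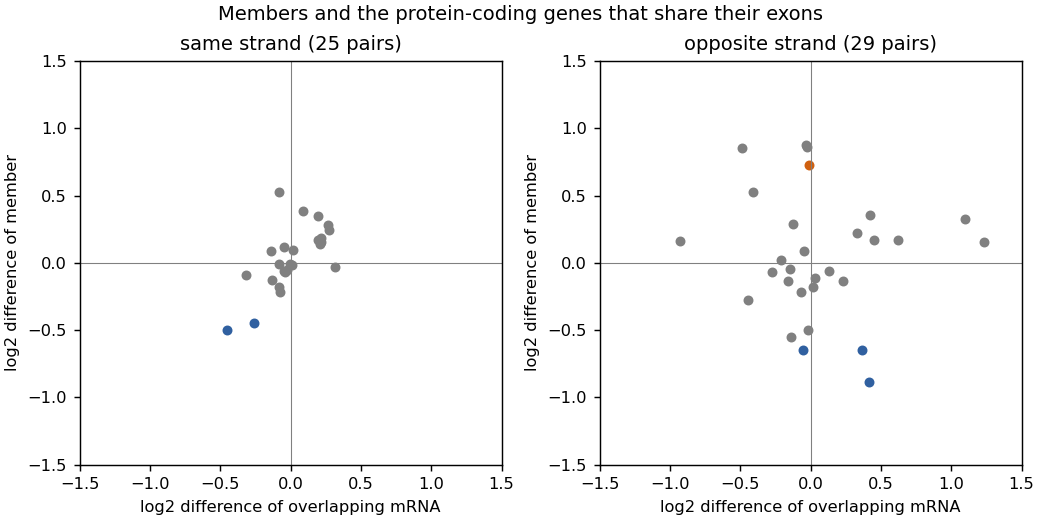
The log2 difference, GCNA null minus wild type, of each member (y) against that of the protein-coding gene with which it shares exon bases (x), on the same strand (left, 25 pairs) and on the opposite strand (right, 29 pairs); orange and blue members passed as higher and lower. Points on the left rise with scatter (20 of 25 pairs with the same sign, Pearson's r 0.66) and those on the right do not (14 of 29, r -0.06).

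CR45601 lies wholly inside Yp1, a yolk protein gene of follicle cells and fat body, on the opposite strand (875 of its 875 bp). It was at 522, 322 and 421 normalized counts in wild type and at 319, 304 and 565 in GCNA null. Yp1 was at 270780, 332140 and 270550 in wild type and at 197680, 193970 and 319960 in GCNA null. CR45601 thus stood at 0.193%, 0.0971% and 0.156% of Yp1 in wild type and at 0.161%, 0.157% and 0.176% in GCNA null, and whether its reads come from the strand of Yp1 was not tested.

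Counts depend on length, so levels were compared between members per kb of annotated exon, which is approximate since the newer gene models may differ from those the authors counted. CR34335 (X:3545750-3546110, 361 bp) had the highest mean over the 6 libraries, 35091 normalized counts. It was at 39352, 45882 and 36392 in wild type and at 28964, 29757 and 30197 in GCNA null. Every null library was lower, but the log2 difference of -0.44 ± 0.11 did not pass (SE; adjusted p = 0.077 by limma). It passed with the 6 libraries as separate samples (adjusted p = 0.017 by limma). That fit counts the nearly alike null libraries described above as separate samples, and 16.6% of all rows passed in it. Per kb, CR34335 led in wild type with 112304 normalized counts against 1703 for CR40469, and CR40469 led in GCNA null with 149644 against 82489.5 for CR34335. CR42862 had a mean of 20472 over the 6 libraries but 3732 per kb, at 21344, 18023 and 18838 in wild type and 21032, 21201 and 22396 in GCNA null (log2 difference 0.17). The 3 members with the highest means took 42.6% to 53.9% of the members' reads in a library. CR44999, at 6902, 5604 and 6451 against 8092, 8254 and 6284, shares 1859 of its 2025 bp with dm, the fly Myc gene, and its counts were 26.4% to 28.4% of those of dm over the libraries, and reads of the shared bases could belong to either gene. CR43900 shares 199 bp with Cam, the calmodulin gene, and differed by 0.10 on the log2 scale. CR45102, stand-alone on X, was at 2324, 1800 and 2056 in wild type and at 2902, 3049 and 2652 in GCNA null, higher in every null library but not past the test (log2 difference 0.46 ± 0.12, SE; adjusted p = 0.076 by limma). CR30055, inside Sin3A, differed by -0.11.

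On chromosome X, where Gcna lies, 2 of 31 members were higher and 2 lower, beside 3.35% higher, 2.23% lower and 5.58% in either direction among all 1703 rows tested on X. The libraries of 15 of these members did not overlap, 7 higher and 8 lower, beside 36.5% of the rows on X. The 4 that passed lay 1739 kb (CR40469), 2103 kb (CR45481), 3091 kb (CR44833) and 7107 kb (CR43836) from Gcna. Whether their differences come from sequence linked to Gcna was not tested. Within 1 Mb of Gcna lay 5 members, CR44381, CR44382, CR44690, CR44779 and CR45197, and none passed, beside 9.76% of the 205 other rows tested there. CR44381 was at 150, 186 and 180 in wild type and at 133, 140 and 140 in GCNA null, and CR44382 at 152, 167 and 163 against 115, 140 and 139, both separate between groups, beside 46.3% of those rows. CR45197, which shares all of its 1470 bp with sgg, overlapped between groups, at 449, 392 and 377 against 375, 379 and 428.

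In 4 members, GCNA null replicate 3 lay more than 2-fold from the mean of replicates 1 and 2. CR40962, a row without annotation, was at 100, 202 and 51.2 normalized counts in wild type and at 2896, 2802 and 66.4 in GCNA null, so replicate 3 lay among the wild type libraries. CR43250, a stand-alone lncRNA of 341 bp on 3L, was at 59.8, 22.2 and 13.1 in wild type and at 666, 716 and 142 in GCNA null. All null libraries were above wild type, but CR43250 is a member only through its level in GCNA null. The log2 difference of 3.54 ± 0.82 did not pass (SE; adjusted p = 0.058 by limma). It did so with the 6 libraries as separate samples (adjusted p = 0.0145 by limma). That fit counts the nearly alike null replicates 1 and 2 as 2 samples, and 16.6% of all rows passed in it. CR44707 was at 238, 351 and 298 in wild type and at 77.1, 89.2 and 255 in GCNA null, and CR45156 at 425, 460 and 338 against 164, 151 and 411. In both, replicate 3 lay within the range of wild type. Replicates 1 and 2 were also the libraries with the lower share of eggshell genes given above, and the part of that in these members was not tested.

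**Figure D5:**
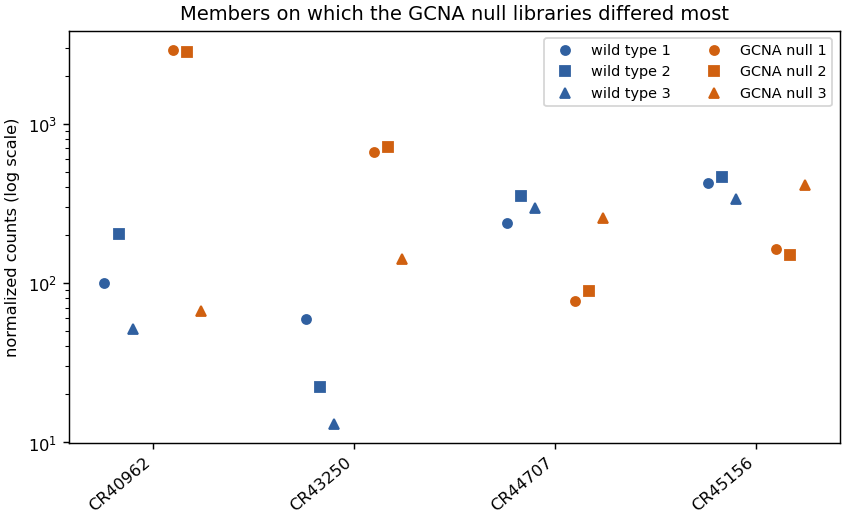
The normalized counts (log axis) of the 4 members on which the GCNA null libraries differed most, with 1 point per library, wild type in blue and GCNA null in orange, and the replicate given by the shape. For CR40962 null replicates 1 and 2 are at 2896 and 2802 and replicate 3 at 66.4, between the wild type libraries.

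Non-coding RNAs with names of their own were described from a list of 30, of which 23 were in the table and 19 were tested; CR44101 (dntRL) is a member as well. Of the 19, 4 were higher and none lower, with a median log2 difference of -0.01, beside 4.25% higher and 2.11% lower among all rows. With the 6 libraries as separate samples, 6 were higher and 2 lower, beside 16.6% of all rows in either direction. DESeq2 called 8 of the 19, beside 12.8% of all rows. Hsromega, a nuclear RNA of the heat-shock response that gathers hnRNP proteins into omega speckles, rose from 20237, 20525 and 19830 to 37802, 38292 and 29218 normalized counts (log2 difference 0.72 ± 0.12, SE; adjusted p = 0.019 by limma). The snoRNA hosts Uhg3, with a log2 difference of 0.67 ± 0.07 (SE; adjusted p = 0.0044 by limma), and Uhg8, with 0.44 ± 0.09 (SE; adjusted p = 0.041 by limma), were higher. The other Uhg hosts tested did not pass and went both ways. Their log2 differences were 0.41 for Uhg1, 0.02 for Uhg7, -0.16 for Uhg5, -0.24 for Uhg2 and -0.29 for Uhg4. Every null library was lower than wild type for Uhg2 and Uhg4, and higher for Uhg1. The last of the 4 that passed was pgc, which is now listed as protein-coding and represses transcription in germ cell precursors, at 4997, 5320 and 4831 against 7775, 8038 and 7320. roX1, an RNA of male dosage compensation, was low, at 69.2, 83.5 and 53.4 against 49.5, 45.0 and 30.2, and did not pass. Among genes that act on non-coding RNAs, none passed of 6 of dosage compensation, 12 of the nuclear exosome, 13 of Integrator and 8 of omega speckles. At an unadjusted p under 0.05 by limma these lists held 1, 2, 2 and 1 genes in that order, beside 23.1% of all rows. In the same order DESeq2 called 0, 0, 1 and 0, beside 12.8% of all rows.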

How the data were processed

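The deposited table holds 1 value per gene and library, a signal that the authors made by dividing read counts by 1 size factor per library: within a tolerance of 1e-06, 100% of values are whole multiples of 1 step per library, so whole reads were recovered. The submitters' processing notes list DESeq2, STAR 2.5 and CASAVA 1.8.2 with build dm6, and no source used here names the counting tool or annotation. The main test was limma 3.58.1 (R 4.3.3) with a mean-variance trend on log2(normalized count + 1) over the 10132 rows that reached 10 normalized counts in 3 or more libraries, two-sided, with Benjamini-Hochberg adjustment. A log2 difference on this scale understates the change of low genes. GCNA null replicates 1 and 2 were averaged as 1 sample. Reads went into edgeR 4.0.16 and DESeq2 1.42.0 as alternatives. Members were matched to Ensembl release 115 (96 of 99), whose gene models may differ from those counted.

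Named were the 10 most abundant members, those past the test with separate groups, those at the limit of 100, near Gcna, holding a snoRNA or differing most between null libraries, with overlapping and neighbouring genes; others were named with values seen. The members and lists were chosen with earlier results of these data known. Ribosomal RNA pseudogene rows (4) were left out.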

Additional observations from a re-analysis of the deposited data

How the results depend on the processing

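The replicate numbers of the titles did not pair the samples: same-numbered libraries had correlations of their deviations from the group means of -0.176, 0.073 and -0.094. With 6 separate samples and a replicate block, 11 members were higher and 11 lower and 1117 rows passed in all. With 6 separate samples and no replicate block these were 18, 14 and 1684, and 30 less abundant CR-numbered rows passed in place of 15. DESeq2 on recovered reads called 11 members higher, 13 lower and 1297 rows in all, against 4, 7 and 645 by limma, and edgeR called 4 lower. A minimum mean of 50 left 4 less abundant CR-numbered rows past the test. A mean of 50 for membership gave 7 higher, and leaving out other kinds than lncRNA and antisense RNA, a setting added after the data were seen, gave 2 higher. Leaving out the 3 rows without annotation, or keeping only members with a mean of at least 100 in both groups, also added after the data were seen, gave 4 higher, with 7 and 5 lower. Leaving out 1 library, or null replicates 1 and 2 together, gave 1 to 6 members higher, 1 to 7 lower, 146 to 639 rows in all and 3 to 15 less abundant CR-numbered rows. Without wild type replicates 1, 2 and 3 in turn 2, 2 and 1 members were lower, without null replicate 3 it was 4, and without null replicates 1 and 2, 1 was higher and 1 lower. Fits without null replicates 1 and 2, or without null replicate 3, have 1 null sample, assumed to vary like wild type. The cause of these shifts was not tested, and some of these fits also differ in the number of samples. No called member changed sign under any of the 19 settings. The floor of 3 reads stood at 2.37 to 3.45 normalized counts per library, below the mean of 100 that members reached. Single libraries of a member could lie nearer to it, as did CR43250 at 22.2 and 13.1 in wild type replicates 2 and 3. The part of depth and of the number of samples in the calls was not tested.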
